A study of Mus musculus with 32 samples.

Results

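The 9 genes described here encode the receptors with which blood-forming and white blood cells find and hold the bone marrow niche: the chemokine receptors Cxcr4, Cxcr2 and Ccr2, the integrin chains Itga4, Itgb1, Itgal and Itgb2, the selectin ligand Selplg and the hyaluronan receptor Cd44. They were chosen by name from a table of 55487 mouse genes, and each name matched 1 gene. Total RNA of 4 sorted bone marrow populations was sequenced from 8 mice, giving 32 libraries in 8 groups of 4. The 4 Cxadr-ko mice were Mx1-Cre+ Cxadr fl/fl and the 4 control mice Mx1-Cre- Cxadr fl/fl. Both genotypes thus carried floxed alleles of Cxadr, the coxsackievirus and adenovirus receptor, and among them the Cxadr-ko mice alone carried the recombinase. Mx1-Cre is driven by an interferon-inducible promoter that is active in many cell types besides blood cells. Strain, age, sex and any inducing treatment are not given in the labels. The sorted gates were GMP (granulocyte-monocyte progenitors), MEP (megakaryocyte-erythroid progenitors), CMP (common myeloid progenitors) and LSK (the lineage-negative, Sca-1 positive, Kit positive fraction that holds stem and multipotent progenitor cells), and every mouse gave a library of each.

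Stem and progenitor cells are kept in the marrow mainly by CXCR4, which binds CXCL12 made by stromal cells, and by the integrin alpha4 beta1 (Itga4 with Itgb1), which binds VCAM1 and fibronectin. CXCR2 and CCR2 act in the other direction, drawing neutrophils and monocytes out of the marrow towards CXCL1-type and CCL2-type chemokines. The integrin LFA-1 (Itgal with Itgb2) binds ICAMs, PSGL-1 (Selplg) carries the sugars that selectins grip when a cell rolls along a vessel wall, and CD44 binds hyaluronan. Transcript levels say nothing of how much receptor was on the cell surface or whether an integrin was active.

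Levels are given as normalized counts, that is, reads per gene divided by 1 size factor per library by the authors. The libraries held 8313300 to 13641248 reads. The labelled gates carried the transcripts that their names call for only in part. LSK had the highest Ly6a, which encodes Sca-1 (mean 710 in Cxadr-ko and 745 in control mice, n = 4 each, against at most 66.7 in any other group), and GMP the highest Elane, which encodes neutrophil elastase (57789 in Cxadr-ko and 55621 in control mice, against at most 3818 elsewhere). MEP was mixed. It had the highest mean Gata1 (243 in Cxadr-ko and 274 in control mice) and Itga2b (382 in Cxadr-ko and 450 in control mice), while the erythroid genes Klf1 (135 in Cxadr-ko and 93.5 in control mice) and Car1 (0 in Cxadr-ko and 10.3 in control mice) were low. The sum of 10 erythroid and megakaryocyte markers ran from 1090 to 1931 in MEP of Cxadr-ko mice and from 1479 to 1789 in control mice, and overlapped that of CMP and LSK. Mpo, a granulocyte enzyme gene, averaged 49996 in MEP of Cxadr-ko and 46861 in MEP of control mice, so MEP is used below as the name of the gate. Cxadr itself was scarce, with a sum of 25 to 133 reads over the 4 libraries of a group, and was not called lower in Cxadr-ko mice (mean over gates, log2 fold change -0.40 ± 0.25 (SE), limma adjusted p = 0.70); counts over the whole gene do not show whether its floxed part was deleted. B and plasma cell markers summed to 365778 normalized counts in the LSK library of Cxadr-ko mouse 1 and 919443 in that of control mouse 1, against at most 101630 in the other 30 libraries. The animal numbers in the labels place mouse 1 of each genotype apart from the other mice. In sorted bulk RNA, fewer cells of a type and less RNA per cell cannot be told apart.

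The receptors differed widely in abundance. Per kilobase of exon, Selplg was the most abundant member, with group means of 607 to 990 normalized counts, followed by Cd44 at 330 to 504. Itgb1, at 201 to 260, came next in CMP and LSK, whereas Ccr2 exceeded it in GMP and MEP. Itga4 lay at 73.2 to 104, Itgb2 at 76.2 to 200, Itgal at 44.8 to 81.4, Ccr2 at 39.4 to 288 and Cxcr2 at 10.2 to 104. Cxcr4 was at 10.9 to 30.8, and its groups held only 92 to 225 reads each over 4 libraries. The counting error of Cxcr4 is therefore not small: the exact 95% Poisson interval of the lowest group sum runs from 74.2 to 113 reads, and it covers counting error only. Among all 4 populations, the chemokine receptors Cxcr2 and Ccr2 varied most and Itga4 and Itgb1 least.

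**Figure D1:**
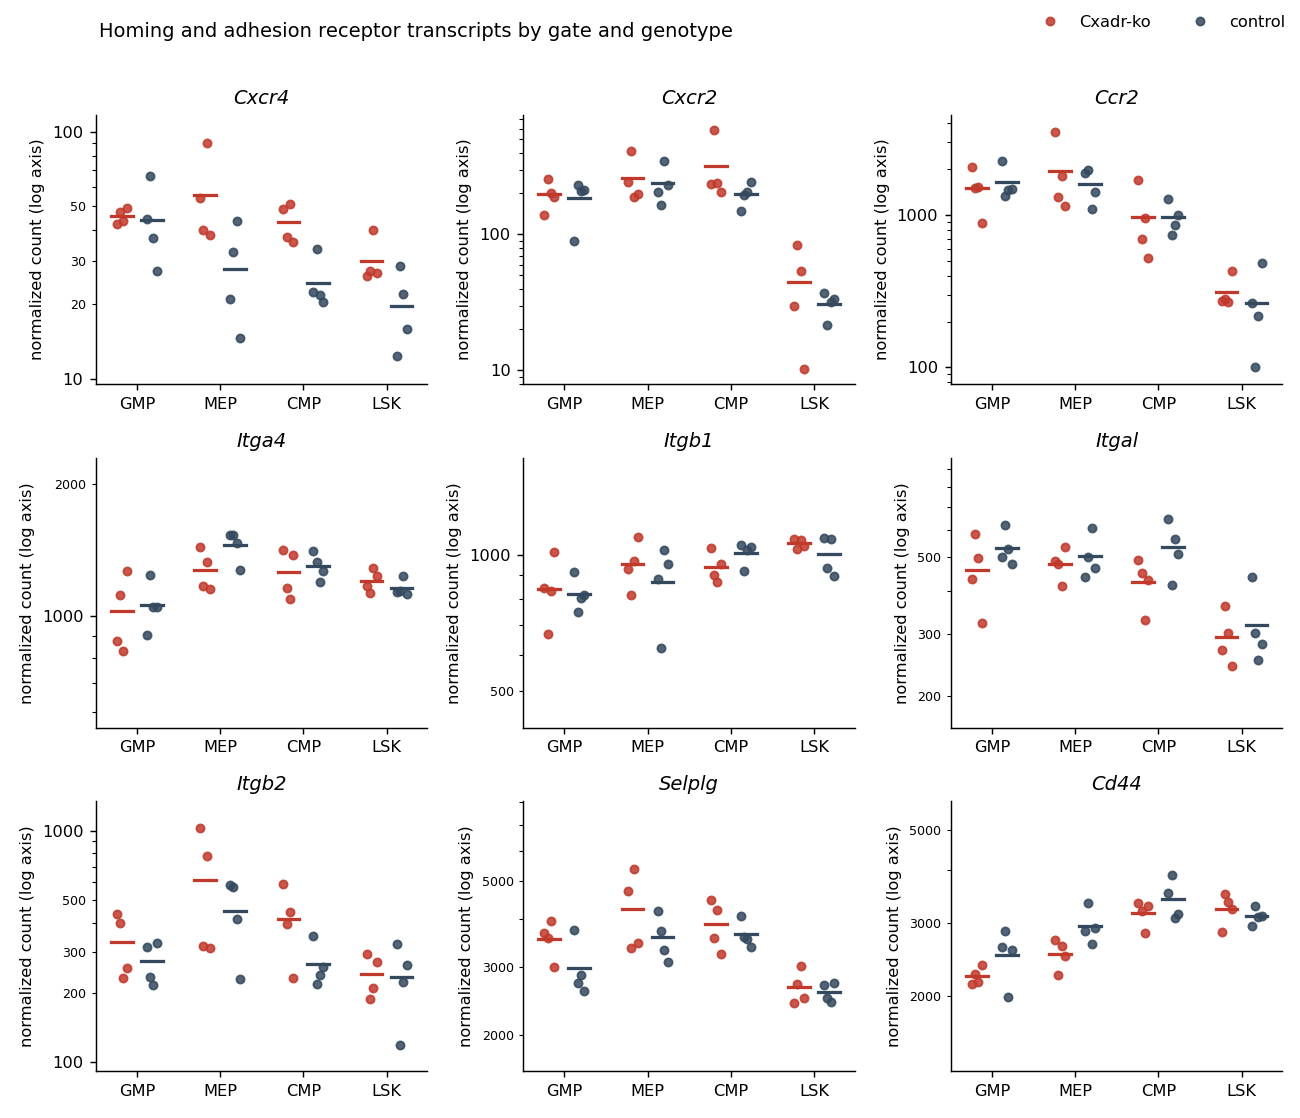
Normalized counts (log axis) of the 9 genes in the 32 libraries, by sorted gate, with Cxadr-ko libraries left of control libraries; points are mice and the horizontal line is the mean of 4. Cxcr2 and Ccr2 sit lowest in LSK, Cd44 is lower in GMP than in LSK, and the 2 genotypes overlap for every gene and gate except Cxcr4 in CMP.

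The promoters of 3 members are shown because these genes have different patterns. Cxcr2 was low in LSK, Cd44 was lower in GMP than in LSK and CMP, and Cxcr4 had the largest difference between genotypes, which was not called. The sequences lie upstream of the RefSeq gene start (GRCm38.p6), 5′ to 3′ on the strand of the gene. The Cxcr2 window overlaps 2 annotated exons, and the Cd44 and Cxcr4 windows overlap none. Capitals mark matches, on either strand, to short words bound by families of blood cell transcription factors. The word searched for PU.1 was GAGGAA. For the C/EBP family it was TTGCNNAA. For the RUNX family the searched word was TGTGGT. For the factors of the GATA family the word AGATAA was searched. For the KLF and SP families together the word searched was GGGCGG.
Cxcr2, chr1:74153744-74153988, plus strand: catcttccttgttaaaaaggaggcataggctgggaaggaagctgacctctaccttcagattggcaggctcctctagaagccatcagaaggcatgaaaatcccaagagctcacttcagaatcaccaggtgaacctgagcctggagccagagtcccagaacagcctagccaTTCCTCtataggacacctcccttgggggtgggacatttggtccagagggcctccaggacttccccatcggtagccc
Cd44, chr2:102901666-102901915, minus strand: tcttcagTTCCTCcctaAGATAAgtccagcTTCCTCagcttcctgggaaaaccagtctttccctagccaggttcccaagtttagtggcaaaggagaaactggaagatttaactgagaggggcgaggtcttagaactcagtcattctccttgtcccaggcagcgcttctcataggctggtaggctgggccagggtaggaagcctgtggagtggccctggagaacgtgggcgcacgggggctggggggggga
Cxcr4, chr1:128592300-128592549, minus strand: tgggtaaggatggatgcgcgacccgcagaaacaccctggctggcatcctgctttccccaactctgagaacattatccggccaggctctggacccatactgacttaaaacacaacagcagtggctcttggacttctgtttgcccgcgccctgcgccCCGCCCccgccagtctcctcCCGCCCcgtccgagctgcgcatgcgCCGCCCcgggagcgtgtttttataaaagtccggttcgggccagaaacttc
The Cxcr2 window held 1 PU.1 match, the Cd44 window 2 PU.1 matches and 1 GATA match, and the Cxcr4 window 3 KLF/SP matches. No marked matches overlapped in these windows. Of 32851 RefSeq promoters, 23.3% held the PU.1 word, 9.99% the GATA word and 32.7% the KLF/SP word, so the words are common and a match is not a binding site. Of the 9 members, 6 had an entry in the promoter table, and the Itga4 and Itgb1 windows, which are not printed, held 1 KLF/SP match each, with 1 RUNX match beside it for Itga4 and 1 PU.1 match for Itgb1. The Ccr2 window had only 17 bases and held no match.

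Cxcr2, the receptor for CXCL1-type chemokines that brings neutrophils into the blood, set LSK apart from the 3 other gates. Its gene lies on chromosome 1 (ENSMUSG00000026180, 74153989 to 74161246, plus strand, mm10). In GMP it had 140, 255, 203 and 189 normalized counts in Cxadr-ko mice and 89.0, 231, 209 and 214 in control mice. In MEP the values were 244, 409, 188 and 199 in Cxadr-ko mice and 205, 165, 348 and 231 in control mice, and in CMP 236, 585, 239 and 206 in Cxadr-ko mice and 149, 195, 205 and 244 in control mice. In LSK they were 29.9, 84.2, 53.6 and 10.3 in Cxadr-ko mice and 37.0, 21.5, 31.8 and 33.7 in control mice. Every GMP, MEP and CMP library lay above every LSK library. Within control mice Cxcr2 was higher than in LSK by 2.48 ± 0.26 in GMP, 2.87 ± 0.26 in MEP and 2.64 ± 0.26 in CMP (log2 difference ± SE; limma with the mouse as a block, adjusted p = 3e-06, 3.6e-06 and 8.9e-06), in 4 of 4 mice each time. GMP, MEP and CMP were not told apart by Cxcr2 (adjusted p of 0.36 to 0.79).

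Markers of mature neutrophils moved with Cxcr2 in part. The sum of 11 such markers (Retnlg, S100a8, Camp, Ltf and others) was highest in CMP of Cxadr-ko mouse 2 (112263, with Cxcr2 at 585), in GMP of the same animal (59216, Cxcr2 at 255) and in MEP of control mouse 3 (116284, Cxcr2 at 348), and each had the highest Cxcr2 of its group. The GMP library of control mouse 1 had the lowest sum of that gate (1715) and the lowest Cxcr2 of it (89.0). In LSK the sums ran from 865 to 3282 in Cxadr-ko mice and from 302 to 1979 in control mice. In MEP of Cxadr-ko mice the highest Cxcr2 (409, mouse 2) did not fall on the highest sum (28563, mouse 1, with Cxcr2 at 244). Some libraries of other gates had sums inside the LSK range, all with Cxcr2 above every LSK library (at most 84.2). They were MEP (503, Cxcr2 at 205), CMP (1392, 149) and GMP (1715, 89.0) of control mouse 1 and MEP of Cxadr-ko mouse 4 (3151, 199). Alox5, the lipoxygenase that starts leukotriene synthesis, was among the 2 genes most like Cxcr2 over the 32 libraries (Pearson r of log2 values 0.86, of 18475 genes searched), together with Pcbp1 (0.86).

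Ccr2, the receptor with which monocytes leave the marrow, followed the same outline. Its gene lies on chromosome 9 (ENSMUSG00000049103, 124101950 to 124113557, plus strand, mm10). GMP held 2067, 1512, 1539 and 887 normalized counts in Cxadr-ko mice and 2274, 1334, 1469 and 1476 in control mice. MEP held 3519, 1325, 1801 and 1140 in Cxadr-ko mice and 1904, 1976, 1091 and 1411 in control mice, and CMP held 1704, 701, 963 and 525 in Cxadr-ko mice and 1269, 743, 858 and 997 in control mice. LSK held 272, 280, 269 and 432 in Cxadr-ko mice and 264, 101, 216 and 485 in control mice, below every library of the 3 other gates. The log2 difference from LSK in control mice was 2.80 ± 0.29 (SE) for GMP, 2.75 ± 0.29 for MEP and 2.04 ± 0.29 for CMP (adjusted p = 2.8e-06, 1.3e-05 and 2.0e-04). Ccr2 was above CMP in 4 of 4 control mice in GMP (0.76 ± 0.29) and in MEP (0.71 ± 0.29), and neither difference was called (adjusted p = 0.11 and 0.36).

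The summed level of 10 monocyte and macrophage markers ran along with Ccr2 in part. In GMP mouse 1 of each genotype had the highest sum, 22707 in Cxadr-ko (with Ccr2 at 2067) and 25473 in control (with Ccr2 at 2274), and the highest Ccr2 of its group, whereas the other 6 GMP libraries had sums of 9983 to 13786. Between gates the order was not the same: MEP had sums of 2725 to 5988 in Cxadr-ko and 2878 to 5143 in control mice, below all GMP libraries, while its Ccr2 was as high as in GMP within the spread between mice. C1qa, a macrophage gene, was at 0 in all 4 GMP libraries of either genotype. The genes most like Ccr2 were Vim, the intermediate filament vimentin (r = 0.91), and Bloc1s2 (0.91). The part of other cells in the Cxcr2 and Ccr2 levels was not tested.

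**Figure D2:**
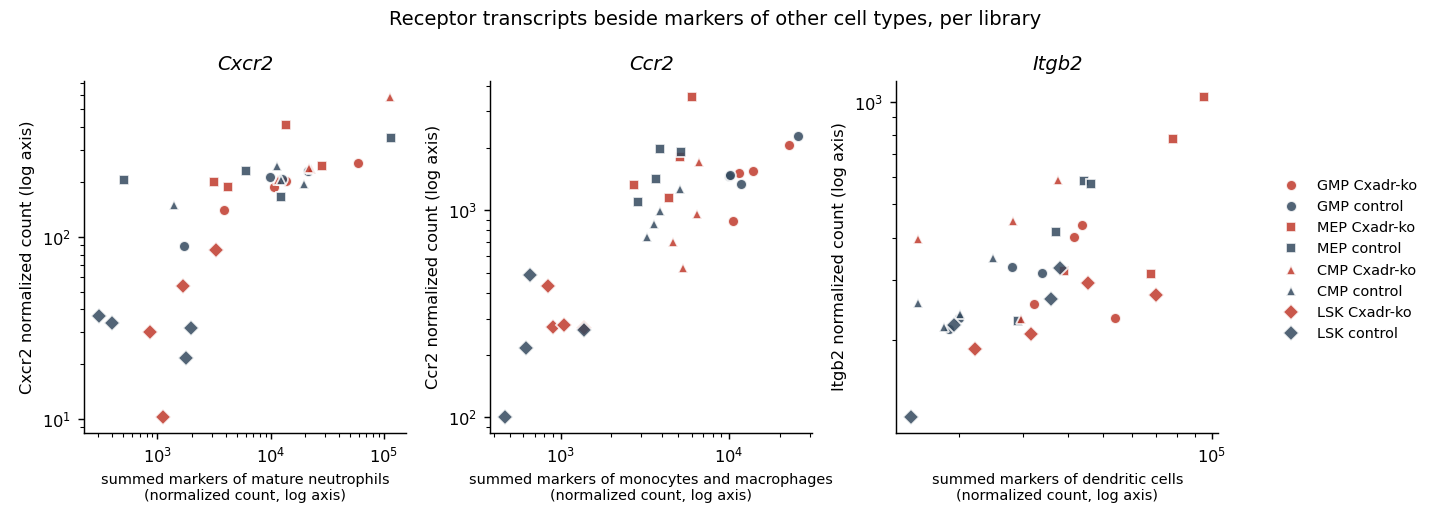
Cxcr2, Ccr2 and Itgb2 (vertical, normalized counts) against the summed markers of mature neutrophils, of monocytes and macrophages and of dendritic cells (horizontal, normalized counts), 1 point per library, both axes logarithmic; red is Cxadr-ko, grey control, and the shape gives the gate. The MEP library of control mouse 1 (neutrophil sum 503, Cxcr2 205) lies at an LSK-like sum and above all LSK libraries in Cxcr2. The GMP library of control mouse 1 (sum 1715, Cxcr2 89.0) also lies at an LSK-like sum, close to the highest LSK Cxcr2 (84.2).

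Cxcr4, the receptor that keeps cells in the marrow, was low in all gates and highest on average outside LSK. Its gene lies on chromosome 1 (ENSMUSG00000045382, 128588199 to 128592293, minus strand, mm10). It had 42.2, 47.5, 43.6 and 49.2 normalized counts in GMP of Cxadr-ko mice and 44.5, 66.6, 37.3 and 27.3 in GMP of control mice. MEP held 53.8, 40.2, 90.6 and 38.3 in Cxadr-ko mice and 21.0, 32.6, 43.5 and 14.6 in control mice. CMP held 48.8, 37.7, 51.0 and 35.7 in Cxadr-ko mice and 22.5, 33.4, 21.8 and 20.5 in control mice, and LSK held 26.2, 27.3, 40.2 and 26.7 in Cxadr-ko mice and 12.3, 28.7, 22.0 and 16 in control mice. GMP exceeded LSK by 0.60 ± 0.25 in Cxadr-ko mice (log2, SE; limma adjusted p = 0.086) and by 1.11 ± 0.29 in control mice (adjusted p = 0.0067), in 4 of 4 mice of each genotype. MEP exceeded LSK by 0.80 ± 0.25 in Cxadr-ko mice (adjusted p = 0.045, in 4 of 4) and by 0.43 ± 0.29 in control mice (adjusted p = 0.30, in 3 of 4). Without control mouse 1 the GMP difference from LSK in control mice was 0.89 (adjusted p = 0.077). The LSK libraries with the highest B and plasma cell sums had the lowest Cxcr4 of their groups, 26.2 in Cxadr-ko mouse 1 and 12.3 in control mouse 1. The 26.2 was close to the 26.7 and 27.3 of Cxadr-ko mice 4 and 2. LSK of Cxadr-ko mouse 3, with the next highest sum of its group (101630), had the highest Cxcr4 of that group (40.2). The genes most like Cxcr4 were Ndufc2, a subunit of respiratory complex I (r = 0.77), and Siglecg, an inhibitory lectin of B cells (0.76).

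The alpha4 beta1 chains varied little. Itga4 (ENSMUSG00000027009, chromosome 2, 79255426 to 79333123, plus strand) had a mean of 1023 ± 206 in GMP of Cxadr-ko mice and 1059 ± 137 in GMP of control mice (SD, n = 4). In MEP it averaged 1272 ± 136 in Cxadr-ko and 1450 ± 124 in control mice, in CMP 1261 ± 159 in Cxadr-ko and 1298 ± 88.1 in control mice, and in LSK 1203 ± 70.4 in Cxadr-ko and 1155 ± 51.3 in control mice. In Cxadr-ko mice GMP differed from MEP by -0.33 ± 0.13 and from CMP by -0.31 ± 0.13 on the log2 scale, and MEP from LSK by 0.08 ± 0.13, none called (limma adjusted p of 0.14 to 0.74). In control mice GMP was lower than MEP by 0.46 ± 0.09 and than CMP by 0.30 ± 0.09 (adjusted p = 0.0027 and 0.034), and MEP was above LSK by 0.32 ± 0.09 (adjusted p = 0.013), each in 4 of 4 mice. In control mice the call against CMP was lost without mouse 1, 3 or 4 (-0.19, -0.33 and -0.31, adjusted p = 0.24, 0.079 and 0.084), and that of MEP against LSK without mouse 2 (0.29, adjusted p = 0.064). The 3′ end of Itga4 overlaps Cerkl on the other strand, whose group means were 72.4 to 95.1, and whether the counting used strand is not stated in the sources used here.

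Itgb1 (ENSMUSG00000025809, chromosome 8, 128685654 to 128733200, plus strand), the shared beta1 chain, ranged from 668 to 1093 normalized counts over all 16 Cxadr-ko libraries and from 621 to 1092 over the 16 control libraries. It was lower in GMP than in LSK by 0.35 ± 0.09 on the log2 scale in Cxadr-ko mice (adjusted p = 0.010) and by 0.29 ± 0.10 in control mice (adjusted p = 0.029), in 4 of 4 mice of each genotype. The call in control mice was lost without mouse 1 (-0.30, adjusted p = 0.092) or mouse 3 (-0.24, adjusted p = 0.13). Per kilobase, Itga4 was at 0.331 to 0.394 times the level of Itgb1 in the 4 gates of Cxadr-ko mice and at 0.338 to 0.508 times in those of control mice. The genes most like Itga4 were Gimap9 (r = 0.76) and Icos (0.72), and those most like Itgb1 were Sgcb (0.77) and Akt2 (0.76).

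Of the LFA-1 chains, Itgal was lower in LSK and Itgb2 was uneven between mice. Itgal (ENSMUSG00000030830, chromosome 7, 127296260 to 127335138, plus strand) had 434, 586, 498 and 324 normalized counts in GMP of Cxadr-ko mice and 501, 621, 530 and 478 in control mice, against 271, 362, 302 and 242 in LSK of Cxadr-ko mice and 440, 303, 252 and 282 in LSK of control mice. In Cxadr-ko mice it exceeded LSK by 0.63 ± 0.16 in GMP, 0.71 ± 0.16 in MEP and 0.53 ± 0.16 in CMP (log2, SE; adjusted p = 0.010, 0.0095 and 0.046). In control mice the differences were 0.76 ± 0.17 for GMP, 0.68 ± 0.17 for MEP and 0.76 ± 0.17 for CMP (adjusted p = 0.0019, 0.0076 and 0.0045). GMP and CMP were higher than LSK in 4 of 4 control mice and MEP in 3 of 4. In control mouse 1, whose LSK library had the highest B and plasma cell sum, Itgal was 440 in LSK and 439 in MEP. Without control mouse 3 the MEP difference was 0.48 (adjusted p = 0.087). The gene most like Itgal was Mki67, a marker of dividing cells (r = 0.80), followed by Gm6030 (0.79).

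Itgb2 (ENSMUSG00000000290, chromosome 10, 77530252 to 77565708, plus strand), the beta2 chain of leukocytes, had 1031, 318, 776 and 313 normalized counts in MEP of Cxadr-ko mice and 584, 573, 415 and 229 in MEP of control mice. In LSK the values were 294, 188, 209 and 271 in Cxadr-ko mice and 325, 119, 222 and 264 in control mice. MEP was above LSK by 1.16 ± 0.29 in Cxadr-ko mice (log2, SE; adjusted p = 0.014, higher in 4 of 4) and by 0.95 ± 0.27 in control mice (adjusted p = 0.018, higher in 3 of 4). The call in control mice was lost without mouse 1, 2 or 3 (0.98, 0.51 and 0.96, adjusted p = 0.073, 0.15 and 0.074). The sum of 10 dendritic cell markers was 95018, 38905, 78108 and 67742 in MEP of Cxadr-ko mice 1 to 4 and 44419, 46246, 37052 and 29102 in control mice 1 to 4, so the 2 highest Itgb2 libraries had the 2 highest sums, and Cxadr-ko mouse 4 had a high sum with Itgb2 at 313. The part of dendritic cells in Itgb2 was not tested. Ifi30 (r = 0.81) and Lgals3 (0.79), both abundant in phagocytes, were the genes most like Itgb2.

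Selplg, which carries the selectin-binding sugars of PSGL-1, was lower in LSK than in MEP and CMP. Its gene lies on chromosome 5 (ENSMUSG00000048163, 113818536 to 113832644, minus strand). MEP held 4710, 3370, 5369 and 3471 normalized counts in Cxadr-ko mice and 4182, 3725, 3324 and 3102 in control mice, and LSK held 2430, 2722, 3031 and 2500 in Cxadr-ko mice and 2705, 2495, 2440 and 2739 in control mice, so the gates did not overlap. The log2 difference from LSK was 0.64 ± 0.09 in MEP and 0.53 ± 0.09 in CMP of Cxadr-ko mice (SE; adjusted p = 5.3e-04 and 0.0022), and 0.46 ± 0.07 in MEP and 0.49 ± 0.07 in CMP of control mice (adjusted p = 4.0e-04 and 2.9e-04). GMP against LSK was called in Cxadr-ko mice (0.41 ± 0.09, adjusted p = 0.0045) and missed the threshold in control mice (0.19 ± 0.07, adjusted p = 0.053); the test of whether the genotype difference varied between gates gave an adjusted p of 0.905 for Selplg. GMP was also lower than MEP and CMP in control mice, by 0.27 ± 0.07 and 0.30 ± 0.07 (adjusted p = 0.024 and 0.013), and without mouse 2 or 3 these calls were lost (adjusted p of 0.081 to 0.16). Kmo (r = 0.87) and Lgals3 (0.87) were the genes most like Selplg.

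Cd44, the hyaluronan receptor, was lower in GMP than in LSK and CMP. Its gene lies on chromosome 2 (ENSMUSG00000005087, 102811141 to 102901665, minus strand). GMP held 2133, 2263, 2166 and 2376 normalized counts in Cxadr-ko mice and 2626, 2858, 1986 and 2583 in control mice, and LSK held 2848, 3517, 3357 and 3227 in Cxadr-ko mice and 2950, 3290, 3100 and 3102 in control mice. In each genotype every GMP library lay below every LSK library. GMP was lower than LSK by 0.53 ± 0.08 in Cxadr-ko mice and 0.32 ± 0.07 in control mice (log2, SE; adjusted p = 2.7e-04 and 0.0019), and lower than CMP by 0.50 ± 0.08 in Cxadr-ko mice and 0.45 ± 0.07 in control mice (adjusted p = 0.0023 and 5.4e-04), in 4 of 4 mice of each genotype. MEP was lower than LSK by 0.36 ± 0.08 in Cxadr-ko mice (adjusted p = 0.0096, in 4 of 4) and differed by -0.08 ± 0.07 in control mice (adjusted p = 0.41). CMP differed from LSK by -0.03 ± 0.08 in Cxadr-ko mice and 0.13 ± 0.07 in control mice, neither called (limma adjusted p = 0.85 and 0.22). The test of whether the genotype difference varied between gates gave an adjusted p of 0.876 for Cd44. GMP was lower than MEP by 0.24 ± 0.07 in control mice (adjusted p = 0.034), a call that was lost when any 1 of the 4 mice was left out (-0.27 to -0.17, adjusted p of 0.064 to 0.12). Mex3a (r = 0.84) and Cdkn2aip (0.80) were the genes most like Cd44.

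**Figure D3:**
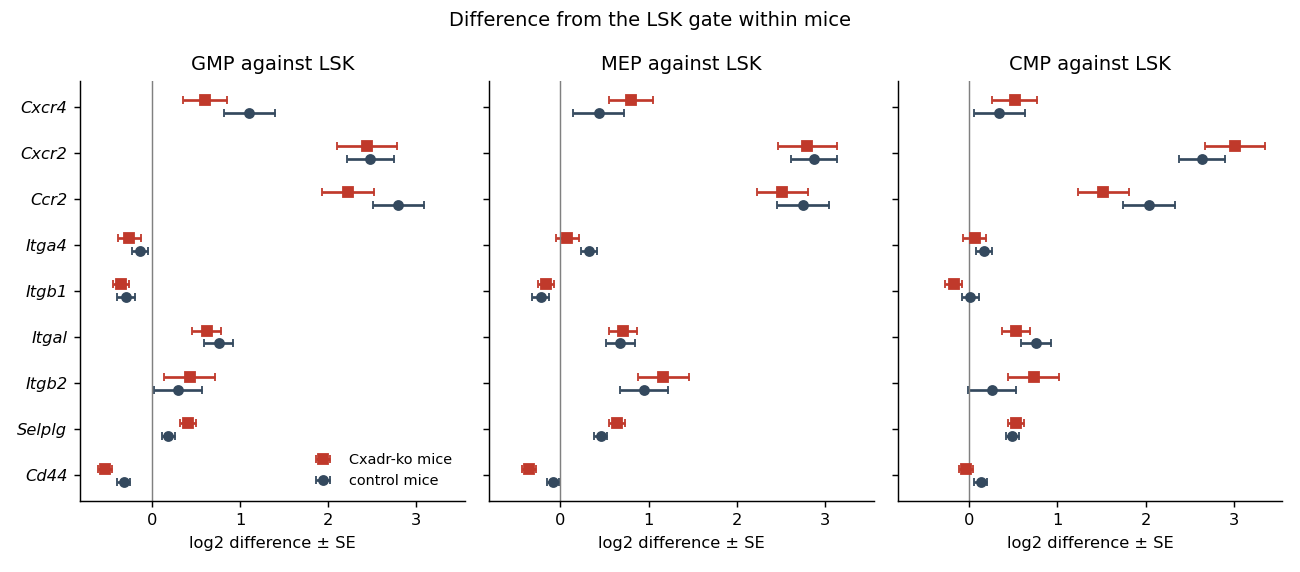
Log2 difference (± SE) of GMP, MEP and CMP from LSK within mice for each gene, squares for the 4 Cxadr-ko mice and circles for the 4 control mice. Cxcr2 and Ccr2 lie at 1.52 or more in all 3 panels, while the other 7 genes lie between -0.53 and 1.16.

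Counted over the members, the gates split as follows in control mice, with 17218 genes tested. GMP against LSK called 6 of 9 members, Cxcr4, Cxcr2, Ccr2 and Itgal higher and Itgb1 and Cd44 lower, where 41.9% of all genes tested were called, 19.1% higher and 22.8% lower. MEP against LSK called 6, all higher (Cxcr2, Ccr2, Itga4, Itgal, Itgb2 and Selplg), against 26.8% of all genes and 12.6% higher, and CMP against LSK called 4, all higher (Cxcr2, Ccr2, Itgal and Selplg), against 21.9% and 10.7% higher. GMP against MEP called 3 (Itga4, Selplg and Cd44, all lower), against 14.9% and 8.3% lower, and GMP against CMP called the same 3, all lower, against 14.2% and 7.81% lower. MEP against CMP called none, where 0.00581% of all genes were called (1 gene), and edgeR and DESeq2 also called none. There 4 members had an unadjusted p under 0.05 in limma, a threshold at which the share of all genes was not counted. In Cxadr-ko mice MEP against LSK called 7 members, Cxcr4 higher and Cd44 lower among them and Itga4 not, against 16.9% of all genes. GMP against LSK called 6 there, with Selplg in place of Cxcr4 (31.7% of all genes), CMP against LSK the same 4 as in control mice (14.3%), GMP against CMP Cd44 alone (7.84%) and GMP against MEP none (9.01%). The median log2 difference of the 9 members in control mice was 0.30 in GMP, 0.46 in MEP and 0.34 in CMP against LSK, beside -0.04, -0.05 and -0.02 for all genes.

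The Cxadr-ko and control mice were then compared for the same genes. No member was called in any gate, in the mean over gates or in the test of whether the genotype difference varied between gates. Called genes made up 0.0192% of all genes tested for GMP, 0.0253% for MEP, 0.0254% for CMP, 0.0433% for LSK, 0.0217% for the mean over gates and 0% for the interaction. The median log2 fold change of the 9 members was 0.02 for GMP, 0.15 for MEP, -0.05 for CMP, 0.09 for LSK and 0.08 for the mean over gates, beside 0.00, -0.00, -0.01, -0.00 and -0.01 for all genes. Unadjusted p under 0.05 was reached by 2 members in MEP, 2 in CMP, 1 in the mean over gates and none in GMP or LSK. Among all genes tested 5.66% did so for GMP, 5.93% for MEP, 7.27% for CMP, 8.58% for LSK and 7.93% for the mean. Neither edgeR nor DESeq2 called a member.

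Cxcr4 had the largest genotype difference of the members, and it was not called. The mean over gates was 42.8, 38.2, 56.3 and 37.5 normalized counts in Cxadr-ko mice and 25.1, 40.3, 31.2 and 19.6 in control mice, so the groups overlapped through control mouse 2. The log2 fold change was 0.64 ± 0.23 (SE, 95% interval 0.12 to 1.15, unadjusted p = 0.020, adjusted p = 0.60). By gate it was 0.12 ± 0.31 in GMP, 1.00 ± 0.42 in MEP, 0.80 ± 0.28 in CMP and 0.63 ± 0.32 in LSK, and the test of a difference between gates gave an adjusted p of 0.88. In CMP all 4 Cxadr-ko libraries (35.7 to 51.0) lay above all 4 control libraries (20.5 to 33.4), the only member and gate without overlap, where 4.42% of all genes tested in CMP did not overlap, 2.36% with Cxadr-ko higher. In GMP, MEP and LSK and in the means of the mice 3.31%, 3.32%, 5.27% and 4.38% of all genes did not overlap, and no member was among them. Without mouse 1 of both genotypes the mean over gates was 0.57 (adjusted p = 0.52).

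**Figure D4:**
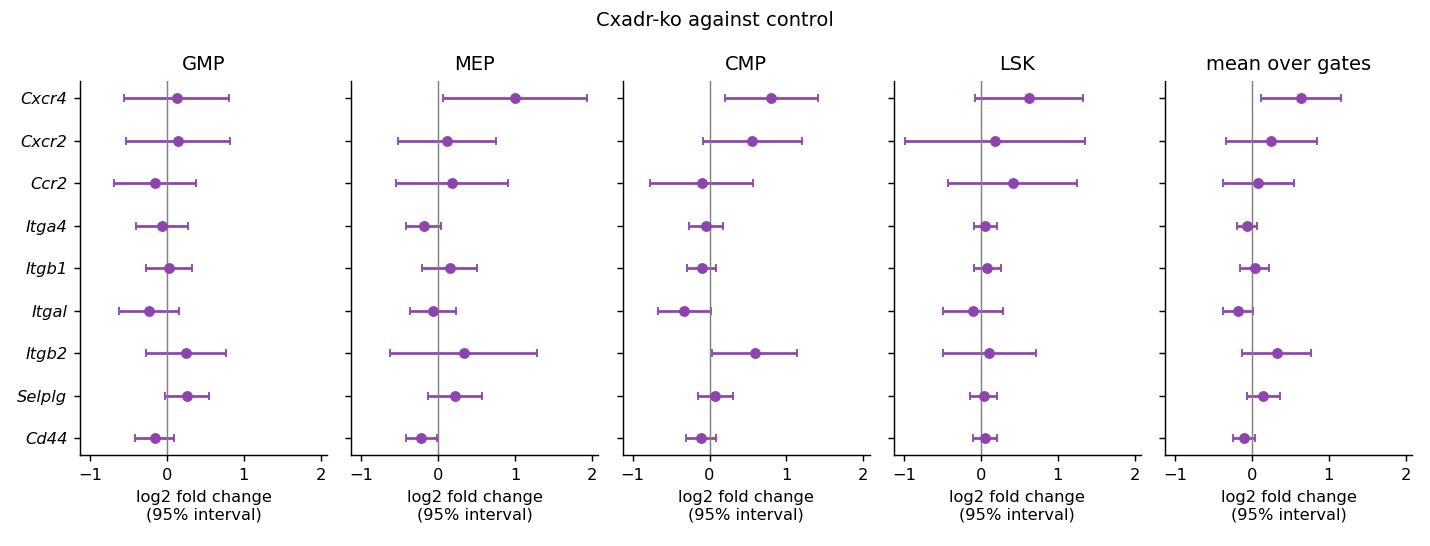
Log2 fold change of Cxadr-ko against control with its 95% interval for each gene, by gate and for the mean over gates. Every interval includes 0 apart from those of Cxcr4 in MEP, CMP and the mean, Itgb2 in CMP and Cd44 in MEP, and none is called after adjustment over all genes.

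The other members gave narrower or more variable differences. Itgb2 in CMP was 415 ± 147 in Cxadr-ko mice and 266 ± 57.8 in control mice (SD, n = 4), a log2 fold change of 0.59 ± 0.25 (SE, unadjusted p = 0.039, adjusted p = 0.67). Cd44 in MEP was 2529 ± 209 in Cxadr-ko mice and 2945 ± 284 in control mice, a fold change of -0.22 ± 0.09 (unadjusted p = 0.039, adjusted p = 0.82). Intervals over gates were narrow for Itgb1 (-0.15 to 0.23), Itga4 (-0.19 to 0.07) and Cd44 (-0.25 to 0.04), and wide for Cxcr2 (-0.34 to 0.84) and Ccr2 (-0.38 to 0.55). Cxcr2 in CMP averaged 317 ± 180 in Cxadr-ko mice and 198 ± 39.1 in control mice, with the 585 of mouse 2 as the high value. Markers of other cells also stood higher in CMP of Cxadr-ko mice, with none called. Mature neutrophil markers were above control in 11 of 11 cases (median log2 fold change 1.88), with sums of 11512 to 112263 in Cxadr-ko and 1392 to 19838 in control mice. Monocyte and macrophage markers were above control in 4 of 5 tested cases (median 0.47), with sums of 4630 to 6644 in Cxadr-ko and 3271 to 5107 in control mice. Dendritic cell markers were above control in 8 of 10 cases (median 0.38), with sums of 15382 to 37574 in Cxadr-ko and 15343 to 24740 in control mice. Such markers were not higher in CMP alone. Neutrophil markers were above control in 10 of 11 cases in GMP (median 0.81) and 8 of 8 in LSK (1.04). In MEP it was 7 of 11 (0.15). The median dendritic cell sum was 42550 in Cxadr-ko and 23995 in control mice in GMP, 72925 and 40735 in MEP, and 38628 and 27655 in LSK. The part of these other cells in the CMP differences of Itgb2, Cxcr2 and Cxcr4 was not tested.

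Itga4 shares its neighbourhood on chromosome 2 with genes that differ between the genotypes. Of 59 protein-coding genes within 5000000 bases, Itga4 included, 31 were tested in the mean over gates and 4 were called, all lower in Cxadr-ko mice. These 4 were all the genes called in that fit, in which 18475 genes were tested (0.0217%). They included Cwc22, a splicing factor gene 1309 kilobases from Itga4 (log2 fold change -1.01, limma adjusted p = 0.0024). The others were the predicted genes Gm13694, Gm13695 and Gm13696, which lie close together 4634 to 4646 kilobases from Itga4, near the edge of the window. Rbm45, at 2872 kilobases, was called in LSK (-0.80, limma adjusted p = 0.019). Itga4 itself was -0.06 ± 0.06 (95% interval -0.19 to 0.07, adjusted p = 0.82), and the median of the 31 genes was -0.06.

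Genes that work beside the members were counted from lists, and none of their genes was called by limma between the genotypes within a gate or in the mean over gates. DESeq2 called 1 gene for selectin ligand synthesis and 1 for chemokine receptor signalling in the mean over gates. Between GMP and LSK in control mice, 5 of 10 tested other chemokine receptors were called (2 higher, 3 lower), and 3 without control mouse 2 or 4. Ccr1 averaged 32.3 ± 9.92 in GMP and 4.92 ± 2.24 in LSK, and Cx3cr1, a monocyte receptor, 89.1 ± 56.5 in GMP and 13.9 ± 4.72 in LSK (SD, n = 4 mice). Of other integrin chains 8 of 15 were called (3 higher, 5 lower), and 5 without control mouse 1. Itga1, a collagen receptor chain, averaged 96.2 ± 61.9 in GMP and 12.4 ± 14.8 in LSK, while Itga9 was at 0 in all 4 GMP libraries and averaged 18.3 ± 8.32 in LSK. In Cxadr-ko mice Itga9 averaged 19.2 ± 28.7 in GMP and 17.7 ± 7.08 in LSK. Of the members' ligands 11 of 15 were called (5 higher, 6 lower), and 7 without control mouse 4. Vcam1, bound by alpha4 beta1, averaged 47.6 ± 28.0 in GMP and 6.03 ± 6.47 in LSK, and Ccl2, the ligand of CCR2, 79.7 ± 29.8 in GMP and 221 ± 32.5 in LSK.

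Enzymes that build the selectin-binding sugars of PSGL-1 were called in 7 of 12 cases (3 higher, 4 lower). The sialyltransferase gene St3gal6 averaged 14.2 ± 19.0 in GMP and 162 ± 25 in LSK, and Tpst2, which adds the sulphate that P-selectin needs, 530 ± 91.8 in GMP and 1068 ± 57.3 in LSK. Fut4, a fucosyltransferase, ran the other way with 77.8 ± 26.8 in GMP and 36.3 ± 16.3 in LSK. Of genes for integrin activation and its link to the cytoskeleton 12 of 22 were called (4 higher, 8 lower), among them Rasgrp2, which activates Rap1 (1502 ± 113 in GMP and 736 ± 96.8 in LSK), and Zyx, zyxin (491 ± 77.7 in GMP and 1167 ± 124 in LSK). Of chemokine receptor signalling genes 14 of 23 were called (4 higher, 10 lower), with the receptor brake Rgs1 at 2783 ± 1108 in GMP and 9352 ± 1411 in LSK and Rgs10 at 344 ± 63.7 in GMP and 89.9 ± 6.99 in LSK. None of the 4 tested hyaluronan genes was called in the main limma fit. Of 14 alternative settings 6 called 1, among them edgeR, DESeq2 and the fit without control mouse 2. Beside these counts stands the 41.9% of all genes called in the same comparison.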

How the data were processed

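Bone marrow of 8 mice was sorted into 4 gates straight into TRIzol and made into libraries with a NEBNext low input kit, per the labels' protocols. The submitters' processing notes name STAR and DESeq2 with builds GRCm38 and mm10, and neither the read counter nor its strand setting is given in the sources used here. The deposited signal values are gene counts that the authors divided by 1 size factor per library: 100% of 765992 values above 0 were whole reads within 0.001 after division by a step of 0.814 to 1.28. Exon lengths came from GENCODE vM21.

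log2(normalized count + 1) was fitted with limma 3.58.1 (R 4.3.3, trend, two-sided) for genes at 10 or more in at least 4 fitted libraries, with 0.05 as the threshold for Benjamini-Hochberg adjusted p over all genes tested. Fold changes on this scale understate changes of low genes. Genotypes were compared within each gate and on each mouse's mean over gates, their variation between gates by an F test with the mouse as block, and gates within the 16 control libraries with the mouse as block. The gates come from the same animals, and libraries of 1 mouse deviated together (correlation 0.063 to 0.53, median 0.21; 48 of 48 best with their own mouse). Library pairs of 1 group exceeded counting error (chi-square per degree of freedom 6.29 to 95.5, 48 pairs). Alternatives were other pseudocounts (0.5 and 5) and filters, quantile normalization, edgeR 4.0.16 and DESeq2 1.42.0 on recovered reads, other blocks, the Cxadr-ko mice, all 32 libraries and leaving out mice. Named genes were the 9 members, the 2 genes most like each, up to 4 per list with the largest called GMP against LSK difference, and called chromosome 2 neighbours of Itga4. Members and lists were chosen with earlier results of these data known. The fits were tested on simulated data with large changes and no shared deviation between libraries of the same mouse. Those data do not show how well small differences are found.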

Additional observations from a re-analysis of the deposited data

Results flagged for a closer look

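In 7 of 72 groups of 4 libraries, 1 mouse stood far from the other 3, where chance gives about 1 in 20. Cxcr4 was high at 40.2 in LSK of Cxadr-ko mouse 3 and at 33.4 in CMP of control mouse 2. Cxcr2 was high at 585 in CMP of Cxadr-ko mouse 2 and low at 89.0 in GMP of control mouse 1. Ccr2 was high at 432 in LSK of Cxadr-ko mouse 4 and at 2274 in GMP of control mouse 1, and Itga4 was high at 1231 in LSK of control mouse 3. The GMP library of control mouse 1 accounts for 2 of them, with the lowest neutrophil marker sum of its gate (1715) and the highest monocyte marker sum (25473). No genotype difference of a member was found to vary between gates (interaction adjusted p of 0.88 to 0.98).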

How the results depend on the processing

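The count of 0 members called between genotypes held in every setting run, in each gate, in the mean over gates and in the interaction; all 303 alternatives to 18 single genotype values stayed above the threshold. For GMP against MEP (3 members) the count was 1 without filter and without the replicate block (no replicate block), 0 in the 16 Cxadr-ko libraries, and 1 to 3 when 1 control mouse was left out. For GMP against CMP (3) it was 1 without the block and in Cxadr-ko mice, 5 over all 32 libraries, and 1 to 2 with a mouse left out. MEP against CMP (0) called 1 member over 32 libraries. GMP against LSK gave 4 to 7, MEP against LSK 4 to 6 and CMP against LSK 4 with a mouse left out. Of 22 called gate differences, 12 were called in every alternative, and the other 10 lost the call in at least 1; none reversed. The causes were not tested. Cxcr4 was not tested at a minimum of 50 in most fits.

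Signs reversed in the mean over gates when 1 mouse was left out, where values spanned -0.11 to 0.22 for Ccr2, -0.034 to 0.46 for Cxcr2 and -0.030 to 0.091 for Itgb1, and in Cxadr-ko mice for Cxcr4 in GMP against MEP (-0.20), Itgb1 in MEP against CMP (0.015) and Cd44 in CMP against LSK (-0.034). The number of all genes called between genotypes was 3, 4, 4, 7 and 4 in GMP, MEP, CMP, LSK and the mean, and 14, 24, 39, 95 and 76 with DESeq2. Between gates it was 2574, 2443 and 7218 for GMP against MEP, CMP and LSK, 1 for MEP against CMP, 4616 for MEP against LSK and 3778 for CMP against LSK, and 4067, 3891, 9152, 214, 6734 and 5775 over all 32 libraries. Same-numbered mice of the 2 genotypes are different animals. Their deviations correlated at -0.085 to 0.40 over 16 pairs, 9 best with their own number; mouse 1 (0.13 to 0.40) and mouse 4 were best with their own number in all 4 gates, a hint from the data and not from the design. The replicate block between genotypes also called 0 members. For GMP against LSK, the other chemokine receptors called fell to 2 and the other integrin chains to 3 at a minimum of 50, where fewer genes are tested, and both to 3 in Cxadr-ko mice. Members under about 50 normalized counts, Cxcr4 above all, are limited by depth.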

Other observations

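Some members varied together over the 32 libraries, as a description of log2 values that share libraries and gate differences. Cxcr2, Ccr2, Itgal and Selplg moved together, with Pearson r of 0.74 for Cxcr2 with Itgal, 0.71 for Cxcr2 with Ccr2, 0.71 for Ccr2 with Selplg and 0.60 for Cxcr2 with Selplg. Itgb2 was closest to Selplg (0.74) and Ccr2 (0.67). Cxcr4 was closest to Selplg (0.49) and Ccr2 (0.43). Cd44 was closest to Itga4 (0.54) and Itgb1 (0.36), and negative with Ccr2 (-0.47). Itga4 was closer to Itgb2 (0.34) and Selplg (0.21) than to Itgb1. The chains that form 1 receptor were not closest to each other: r was 0.15 for Itga4 with Itgb1 and 0.29 for Itgal with Itgb2. Per kilobase, Itgal was at 0.531 times the level of Itgb2 in CMP of Cxadr-ko mice (0.344 to 0.861) and at 0.943 times in CMP of control mice (0.858 to 1.10, n = 4 each), a difference that was not tested.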
